A study of Mus musculus with 24 samples.

Results

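Sildenafil was compared with vehicle in the lungs of mice with Marfan syndrome at 6 months of age, on 5 arrays of sildenafil-treated and 5 of vehicle-treated Marfan lungs, chosen by their titles. These were 10 of the 20 arrays with values. The other 10 came from wild-type mice, 4 given sildenafil and 6 given vehicle, and served for the comparison with wild-type lungs and for the shared estimate of the spread. Of the 24 labelled samples, 4 were titled as failing quality control and held no values (2 wild-type sildenafil, 1 Marfan sildenafil, 1 Marfan vehicle). Treatment was given in drinking water from 6 weeks of age. The labels repeat that treatment text for vehicle samples too, so the groups rest on the titles and on the stated design of 6 mice per group. The sources used here do not give the allele, strain or sex of the mice, the dose or the make-up of the vehicle. Whether each array came from a separate animal is stated only through that design, and the p-values cover no more than the spread among these arrays.

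Sildenafil inhibits phosphodiesterase 5, the enzyme encoded by Pde5a, which breaks down cyclic GMP in vascular smooth muscle. Cyclic GMP is made by soluble guanylate cyclase in response to nitric oxide and by the natriuretic peptide receptors, and through cyclic GMP-dependent kinase it relaxes vessels. In Marfan syndrome the microfibrils that carry elastic fibres are defective, and the lungs are known for widened airspaces.

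Whole lung was the labelled tissue, and its defining markers were bright in both groups. The surfactant gene Sftpc of alveolar type 2 cells stood at 13.15 ± 0.01 log2 units under sildenafil and 13.11 ± 0.07 under vehicle (SD, n = 5 each). Ager of alveolar type 1 cells stood at 12.12 ± 0.34 and 12.17 ± 0.17, and Pecam1 of endothelium at 10.63 ± 0.48 and 10.86 ± 0.14. Values are log2 intensities after quantile normalization over the 20 arrays, with 19494 genes tested and the dimmer 50% of genes (mean under 6.08) called dim. Background probe sets had array medians of 2.77 to 2.95 on this scale, so some dim genes lie near the floor. A difference of 1 on this scale is a doubling.

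Marfan sildenafil array 9 stood apart from every other array. The leading principal component (18.3% of the variance) put it at 73.78 and the other 19 arrays between -9.055 and 9.101. It was more than 1 log2 unit above all other Marfan sildenafil arrays at 477 genes and as far below them at 297, where each of the other 4 did so at 0 to 13 and 1 to 6 genes. Values are therefore given with array 9 (5 against 5) and without it (4 against 5), in that order where 2 values of a gene follow each other. The median of the deposited values per array did not separate the groups, at 6.063 under sildenafil and 6.034 under vehicle (exact permutation test, two-sided p = 0.849). Without array 9 the sildenafil mean was 6.146 (exact permutation p = 0.421). Y-linked genes were low on sildenafil array 8 and on vehicle arrays 20 and 21, so each treatment group held both sexes by that measure.

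No gene passed an adjusted p of 0.05 for sildenafil against vehicle. The lowest adjusted p from limma was 0.252 with all arrays and 0.254 without array 9. At an unadjusted limma p under 0.05, 640 genes (3.28% of those tested) were higher and 669 (3.43%) lower under sildenafil with all arrays. Together these were 6.71% of the genes. Without array 9 the counts were 669 (3.43%) and 669 (3.43%), or 6.86% together. This balance depended on the scale, since the deposited values gave 508 higher and 136 lower with all arrays and 751 and 75 without array 9, and centring each array on its median gave 638 and 390, and 501 and 515. The groups did not overlap at 75 genes that were higher (0.385%) and 97 that were lower (0.498%) with all arrays. Without array 9 these were 175 (0.898%) and 216 (1.11%). Of 252 ways to assign the labels with all arrays, 1 puts every sildenafil array above every vehicle array. Without array 9 it is 1 of 126, so groups separate more readily with fewer arrays. All gene values that follow are measured differences that did not pass the adjusted threshold, and lists of genes are described by counts and medians. The median gene differed by -0.01 with all arrays and by 0.00 without array 9. Over all genes 48.3% were higher and 51.7% lower with all arrays, and 49.7% and 50.3% without array 9, which is the background for the counts of members on each side.

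The smallest p-values belonged to a gene of iron reduction, a neuronal-type kinase, a matrix protein and an autophagy factor. Frrs1 encodes a ferric chelate reductase of membranes. It stood at 6.84, 7.97, 6.92, 6.93 and 6.86 on sildenafil arrays 8 to 12 and at 5.97, 6.18, 6.08, 6.31 and 6.22 on vehicle arrays 20 to 24. All 5 sildenafil arrays lay above all 5 vehicle arrays, and array 9 was the highest. The difference was 0.95 ± 0.18 (SE) with all arrays (limma adjusted p = 0.252). Without array 9 it was 0.73 ± 0.15 (limma adjusted p = 0.254).

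Mapk10 encodes the c-Jun kinase JNK3. It stood at 7.47, 4.25, 7.08, 7.58 and 7.23 under sildenafil and at 5.88, 6.55, 6.32, 6.75 and 6.69 under vehicle. Array 9 was the lowest of the 10 arrays and the other 4 sildenafil arrays were the highest. The difference was 0.29 ± 0.39 with all arrays and 0.91 ± 0.18 without array 9 (limma adjusted p = 0.254). Abi3bp, which encodes a secreted matrix protein, had the same layout, at 9.57, 7.96, 9.18, 9.71 and 9.46 against 9.13, 8.67, 8.73, 8.89 and 9.17. Its difference was 0.26 ± 0.21 with all arrays and 0.56 ± 0.11 without array 9 (limma adjusted p = 0.254).

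Vim, the intermediate filament of mesenchymal cells, was higher on every sildenafil array than on every vehicle array. It stood at 11.79, 12.17, 11.47, 11.71 and 11.64 against 11.36, 11.31, 11.44, 11.27 and 11.35. The difference was 0.41 ± 0.10 with all arrays and 0.31 ± 0.08 without array 9. The zinc-finger gene Zfp106 also showed no overlap in either setting, with differences of 0.34 and 0.35. So did 4 dim genes, the amino acid transporter Slc7a3 (0.87 and 0.97), the anchoring protein Akap6 (0.70 and 0.76), the chloride channel regulator family member Clca3b (1.01 and 0.76) and clotting factor F9 (0.65 and 0.58). Tapbp, which loads peptides onto class I molecules, was 0.54 and 0.53 higher, and Rgl1, an exchange factor of the Ral pathway, 0.55 and 0.47 higher, with overlap of the groups.

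Among genes that were lower, Atg101 had the smallest p. Its product belongs to the kinase complex that starts autophagy. It stood at 5.80, 5.95, 6.11, 6.16 and 6.18 under sildenafil and at 6.75, 6.49, 6.60, 6.52 and 6.81 under vehicle. The groups did not overlap, and array 9 lay among the other sildenafil arrays. The difference was -0.59 ± 0.11 with all arrays (limma adjusted p = 0.252) and -0.57 ± 0.13 without array 9 (limma adjusted p = 0.305).

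Tmem258, a subunit of the oligosaccharyltransferase complex, stood at 8.77, 9.28, 8.96, 8.95 and 8.59 under sildenafil and at 9.19, 9.67, 9.44, 9.46 and 9.06 under vehicle. The groups separated only once array 9 was left out, with a difference of -0.54 ± 0.12 (limma adjusted p = 0.305) against -0.45 ± 0.12 with it. Lower without overlap in both settings were Nrn1 (-0.61 and -0.44), Rabepk (-0.47 and -0.50), the splicing factor Syf2 (-0.37 and -0.37), Nop10 of the small nucleolar ribonucleoproteins (-0.37 and -0.35) and the dim kinase Srms (-0.72 and -0.71). Psen2, a catalytic subunit of gamma-secretase, differed by -0.48 and -0.64 with overlap.

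**Figure D1:**
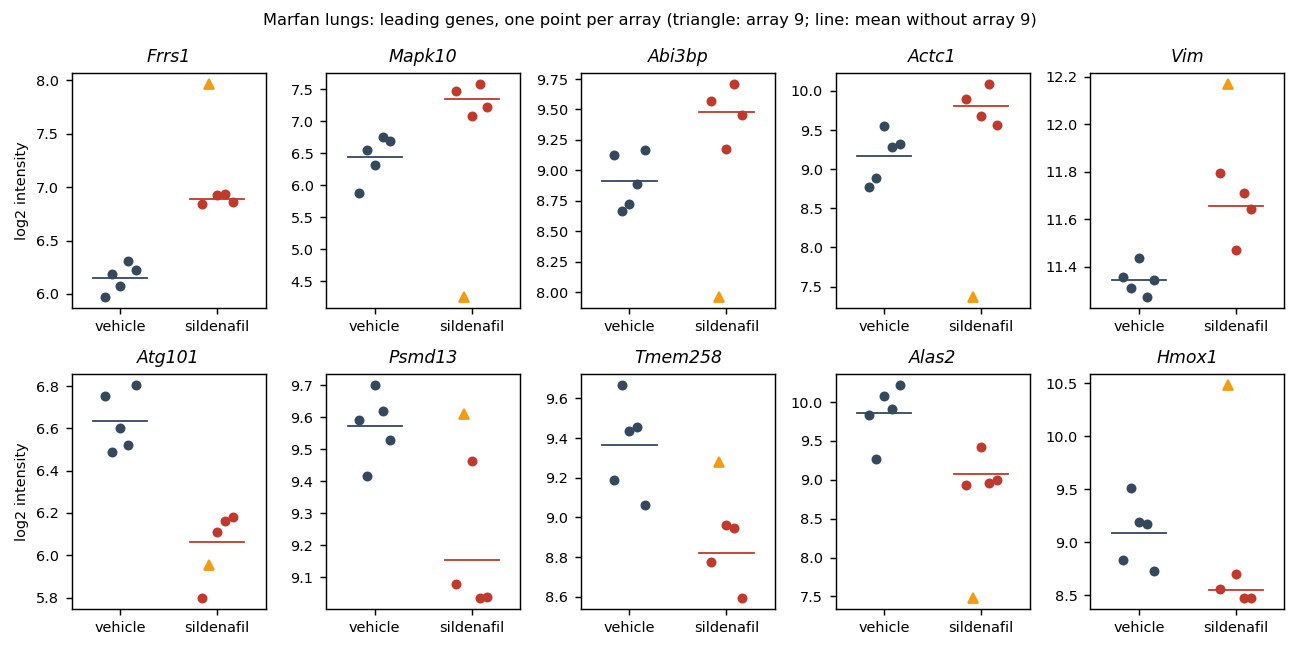
Log2 intensity of 10 genes on each Marfan array (y axis, not starting at 0), vehicle left and sildenafil right; points are arrays, the triangle is array 9, and lines are the vehicle mean and the sildenafil mean without array 9. Frrs1, Vim and Atg101 separated the groups on all arrays, and Mapk10, Abi3bp, Actc1, Tmem258 and Hmox1 did so only without array 9, which lay beyond the vehicle arrays for Mapk10, Abi3bp, Actc1 and Hmox1.

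The cyclic GMP pathway, the direct target of the drug, showed small differences. Of 31 measured genes, 17 were higher and 14 lower with all arrays, and 1 (lower) had an unadjusted limma p under 0.05. Without array 9, 22 were higher and 9 lower, and 1 (higher) had p under 0.05. Each count of 1 is near the share over all genes, which was 3.43% for that side in each setting. The median difference was 0.02 with all arrays and 0.05 without array 9, beside -0.01 and 0.00 over all genes. No member separated the groups in either setting.

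Pde5a was the member with p under 0.05 without array 9. It stood at 10.10, 8.71, 9.88, 9.99 and 10.05 under sildenafil and at 10.13, 9.31, 9.63, 9.44 and 9.86 under vehicle. Array 9 was the lowest of all 10, and vehicle array 20 was the highest. The difference was 0.07 ± 0.19 with all arrays (limma adjusted p = 0.97) and 0.33 ± 0.12 without array 9 (limma adjusted p = 0.653). Endothelial and contractile genes were low on array 9 too, as given with that array, and their part in the Pde5a values was not tested. In whole lung, fewer cells of a type and less RNA per cell cannot be told apart.

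Among other hydrolysing enzymes of the pathway, Pde3a and Pde9a lay on the lower side with all arrays. Pde3a differed by -0.21 with all arrays and 0.05 without array 9. Pde9a, which is selective for cyclic GMP, stood at 8.57, 7.74, 9.07, 8.96 and 8.98 under sildenafil and at 8.89, 9.04, 9.07, 9.03 and 9.14 under vehicle. It was the member with p under 0.05 with all arrays (-0.37 ± 0.16), and without array 9 the difference was -0.14 ± 0.10.

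On the side of synthesis, Gucy1b1, the beta subunit of soluble guanylate cyclase, differed by -0.22 ± 0.18 with all arrays and by 0.03 ± 0.11 without array 9. Ddah1, which removes an inhibitor of nitric oxide synthase, differed by 0.01 and 0.22. Of the natriuretic peptide receptors, Npr1 differed by -0.28 and -0.13, Npr2 by -0.06 and 0.10, and the clearance receptor Npr3 by -0.65 and -0.37. Among effectors, the kinase gene Prkg1 (dim) differed by 0.02 and 0.10, Prkg2 by 0.09 and 0.29, and the kinase substrate Vasp by -0.18 and -0.20.

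Nppa encodes atrial natriuretic peptide and is made mainly by atrial muscle. It stood at 8.27, 4.92, 8.16, 9.56 and 9.25 under sildenafil and at 8.17, 8.93, 7.25, 8.70 and 7.10 under vehicle. Its spread within each group was wider than the difference, which was 0.00 ± 0.66 with all arrays and 0.78 ± 0.50 without array 9. Array 9 was the lowest of the 10 Marfan arrays for Nppa, as it was for most cardiac muscle genes.

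**Figure D2:**
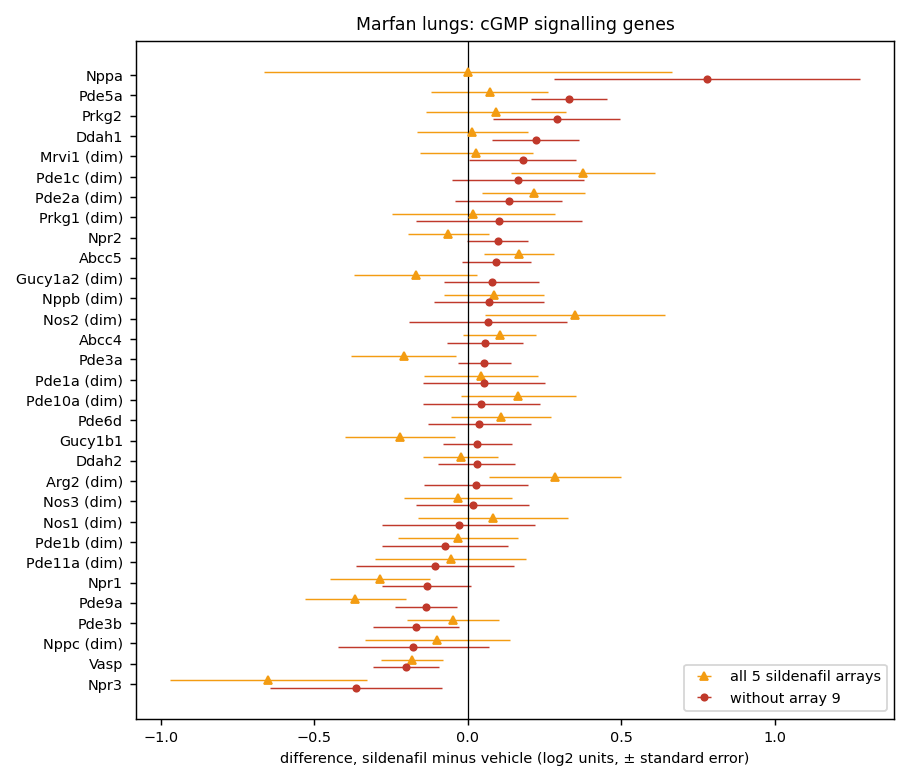
Difference in log2 intensity, sildenafil minus vehicle, for the 31 measured genes of cyclic GMP signalling in Marfan lungs; circles are without array 9, triangles with all arrays, and bars are 1 standard error. Without array 9 the differences ran from -0.37 for Npr3 to 0.78 for Nppa.

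Of 21 measured genes of other vasoactive peptides and receptors, 11 were higher and 10 lower with all arrays, near the share over all genes. Without array 9, 15 were higher, 3 of them at p under 0.05, and 6 were lower. The median was 0.11 without array 9 and 0.01 with all arrays. Ptgs2, the inducible cyclooxygenase, stood at 6.88, 6.73, 6.51, 7.08 and 7.08 under sildenafil and at 5.82, 6.26, 6.90, 6.28 and 6.36 under vehicle. Only vehicle array 22 reached the sildenafil range, and the difference was 0.53 ± 0.16 with all arrays and 0.57 ± 0.16 without array 9. The endothelin B receptor gene Ednrb differed by 0.02 and 0.36 and the apelin receptor gene Aplnr by 0.22 and 0.30. Edn1, which encodes endothelin 1, differed by 0.16 and 0.31. Ptgir, the dim prostacyclin receptor gene, differed by 0.89 and 0.39, with 7.70 on array 9 and 4.92 to 5.47 on the other sildenafil arrays.

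Immediate early genes, the rapid responders to a stimulus that include the AP-1 and EGR factors, were mostly higher under sildenafil. All 26 listed genes were measured. With all arrays 20 were higher, 4 of them at p under 0.05, and 6 were lower. Without array 9, 22 were higher, 5 of them at p under 0.05, and 4 were lower. At that p 3.28% of all genes were higher with all arrays and 3.43% without array 9. The median difference was 0.19 with all arrays and 0.17 without array 9. The list mean ran from 7.86 to 8.47 on the 5 sildenafil arrays and from 7.57 to 8.34 on the vehicle arrays, where array 22 was the highest.

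Printed next are the promoters of 2 members that hold the marked motif and whose differences follow. They are the 250 bases before the start of each gene, from RefSeq on GRCm38.p6, read 5′ to 3′ on the gene's strand. Fos lies on the plus strand with its window at chr12:85473640-85473889, and Dusp1 on the minus strand with its window at chr17:26508473-26508722. Capitals mark TGACG on either strand, the core of the cyclic AMP response element, whose full form TGACGTCA holds the core on both strands.
Fos: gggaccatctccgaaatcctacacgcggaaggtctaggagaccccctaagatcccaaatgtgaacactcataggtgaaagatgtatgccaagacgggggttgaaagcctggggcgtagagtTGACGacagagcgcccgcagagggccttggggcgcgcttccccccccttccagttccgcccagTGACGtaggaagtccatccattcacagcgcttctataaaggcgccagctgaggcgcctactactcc
Dusp1: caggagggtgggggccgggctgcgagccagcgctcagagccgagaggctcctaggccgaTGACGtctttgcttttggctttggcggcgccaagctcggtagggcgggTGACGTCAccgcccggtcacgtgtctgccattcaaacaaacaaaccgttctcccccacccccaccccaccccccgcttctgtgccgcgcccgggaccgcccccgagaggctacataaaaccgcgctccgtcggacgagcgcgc
Fos held 2 matches to the core, the nearer 66 bases before the start, and Dusp1 held 3, counting both strands of its full element. Of 20 listed immediate early genes with a promoter in the RefSeq table, 13 (65%) held the core, beside 5347 of 27025 genes (19.8%). Fosl2 and Zfp36, which are named below, held no match, and Egr1 had no promoter there. The full element was found in 2 of the 20 (10%), beside 478 of all genes (1.77%). These matches describe letters in a window, and no binding was measured.

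Fos stood at 6.37, 7.88, 7.10, 8.78 and 8.43 under sildenafil and at 6.61, 6.17, 7.81, 5.97 and 6.38 under vehicle. Sildenafil arrays 11 and 12 were the highest, arrays 8 and 10 lay within the vehicle range, and vehicle arrays 20, 22 and 24 lay within the sildenafil range. The difference was 1.12 ± 0.39 with all arrays and 1.08 ± 0.39 without array 9 (limma adjusted p = 0.638). Dusp1, a phosphatase that switches off MAP kinases, stood at 11.35, 10.90, 11.34, 11.71 and 12.18 against 11.27, 10.87, 11.57, 11.02 and 11.25. Array 12 was the highest, and the difference was 0.30 with all arrays and 0.45 ± 0.16 without array 9.

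Sildenafil arrays 11 and 12 were also the highest for Egr1 and vehicle array 22 was the highest vehicle array. Egr1, a zinc-finger factor, stood at 7.88, 9.19, 8.58, 9.92 and 10.18 against 8.43, 7.95, 9.12, 8.27 and 7.78, a difference of 0.84 ± 0.36 with all arrays and 0.83 ± 0.37 without array 9. Zfp36, which destabilises inflammatory mRNAs, differed by 0.42 and 0.43, with vehicle array 22 at 9.93 beside 8.80 to 9.09 on the other vehicle arrays. Fosl2 differed by 0.47 and 0.33. No member of the list separated the groups.

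Contractile genes of smooth muscle were mostly higher under sildenafil without array 9. Of 18 genes, 15 were higher without array 9, 7 of them at p under 0.05, and 3 were lower, with a median of 0.22. Over all genes 3.43% were higher at that p without array 9. With all arrays 11 were higher, 7 were lower and 0 had p under 0.05, with a median of 0.04. The mean of the list was 7.76, 6.84, 8.01, 8.08 and 7.75 on the sildenafil arrays and 7.81, 7.56, 7.91, 7.56 and 7.55 on the vehicle arrays. Arrays 10 and 11 lay above all vehicle arrays, arrays 8 and 12 lay within their range, and array 9 lay below it.

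Acta2, smooth muscle alpha-actin, stood at 10.57, 9.88, 11.02, 11.00 and 10.68 under sildenafil and at 10.52, 10.56, 10.71, 10.12 and 10.36 under vehicle. The groups overlapped, and the difference was 0.18 ± 0.17 with all arrays and 0.36 ± 0.13 without array 9. Actg2, the enteric smooth muscle actin, stood at 8.17, 7.10, 8.69, 8.82 and 8.49 against 7.65, 8.10, 8.84, 7.35 and 7.47, and the highest value was on vehicle array 22. Its difference was 0.37 and 0.66. The actin-binding gene Cnn1 differed by 0.16 and 0.52. Kcnmb1, a subunit of the calcium-gated potassium channel of smooth muscle, differed by 0.27 and 0.36 and was the member whose groups did not overlap without array 9. Cald1, caldesmon, which is outside the list, stood at 8.31, 7.77, 8.16, 8.77 and 8.17 against 7.93, 7.51, 7.87, 7.63 and 7.92, with differences of 0.46 and 0.58.

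Without array 9, markers of cardiac muscle lay on the same side as the contractile genes, and with all arrays they lay on the other. Pulmonary veins of the mouse carry cardiac muscle, and heart tissue adjoins the lung. Of 14 cardiac genes, 13 were higher and 1 lower without array 9, with a median of 0.30, and 2 had p under 0.05. With all arrays 5 were higher and 9 lower, with a median of -0.23. The mean of the list ran from 7.62 to 8.14 on the sildenafil arrays other than array 9 and from 7.42 to 7.65 on the vehicle arrays, and it was 5.30 on array 9. The part of cardiac muscle in the smooth muscle differences was not tested.

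Actc1, cardiac alpha-actin, stood at 9.90, 7.37, 9.68, 10.09 and 9.57 under sildenafil and at 8.77, 8.89, 9.56, 9.28 and 9.32 under vehicle. Leaving out array 9 gave groups that did not overlap, by the margin between 9.57 and 9.56, and a difference of 0.65 ± 0.14 (limma adjusted p = 0.305) in place of 0.16 ± 0.31. The troponin genes Tnnt2 and Tnnc1 differed by 0.35 ± 0.13 and 0.48 ± 0.14 without array 9, and by -0.33 and 0.14 with it.

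Genes of pericytes and fibroblasts were on balance slightly higher without array 9 and evenly split with all arrays. Of 18 measured, 11 were higher and 7 lower without array 9, with 4 and 1 at p under 0.05 and a median of 0.08, and 9 were higher and 9 lower with all arrays, with a median of 0.02. Pdgfrb, the receptor that marks pericytes, stood at 8.60, 7.80, 8.40, 8.65 and 8.73 under sildenafil and at 8.64, 7.72, 8.31, 8.11 and 8.17 under vehicle. The groups overlapped, with differences of 0.25 and 0.41 ± 0.14. The growth factor gene Fgf10 (dim) differed by 0.30 and 0.54 and Mfap4, a microfibril-associated glycoprotein gene, by 0.21 and 0.36. Inmt, a methyltransferase gene bright in lung fibroblasts, differed by -0.52 and -0.21. Vim, given above, had the smallest p of the list. The groups did not overlap at 3 members without array 9 and at 1 with all arrays, all of them higher. Over all genes the shares that were higher without overlap were 0.898% and 0.385%.

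Elastic fibre genes did not lie on 1 side. Of 23 measured, 14 were higher and 9 lower without array 9, with a median of 0.09, and 12 were higher and 11 lower with all arrays, with a median of 0.00. Fbln2, a fibulin of the elastic fibre and basement membrane (dim), stood at 5.75, 6.14, 6.07, 5.95 and 6.20 against 5.24, 5.88, 5.61, 5.59 and 5.42, a difference of 0.47 ± 0.16 with all arrays and 0.44 ± 0.17 without array 9. Mfap2, a microfibril glycoprotein, lay on the other side. It stood at 9.73, 8.70, 9.94, 9.57 and 9.81 under sildenafil and at 10.30, 9.77, 10.22, 10.00 and 10.15 under vehicle, a difference of -0.54 ± 0.17 with all arrays and -0.33 ± 0.13 without array 9.

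Of 30 collagen and interstitial matrix genes, 25 were higher and 5 lower without array 9, with 3 and 1 at p under 0.05, and 19 were higher and 11 lower with all arrays. Their median was 0.09 without array 9 and 0.10 with all arrays. Tnc, tenascin C of healing tissue (dim), differed by 0.76 and 0.69, thrombospondin 1 (Thbs1) by 0.61 and 0.64, and decorin (Dcn) by 0.17 and 0.26. Col8a1 (dim) was the member whose groups did not overlap, at 3.88, 4.24, 4.39, 4.09 and 4.38 under sildenafil against 5.47, 4.87, 4.82, 4.46 and 4.40 under vehicle, and its differences were -0.61 and -0.62.

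The metalloproteinases, which cleave matrix, and their inhibitors were on balance higher. Of 35 measured genes, 22 were higher and 13 lower without array 9, with 3 and 1 at p under 0.05 and a median of 0.15, and 24 were higher and 11 lower with all arrays, with a median of 0.13. The inhibitor gene Timp3 stood at 10.33, 9.00, 9.72, 10.01 and 10.07 under sildenafil and at 9.39, 9.48, 9.98, 9.57 and 10.03 under vehicle, with differences of 0.13 and 0.34 ± 0.13. Timp2 differed by 0.16 and 0.24. Among the proteases, Mmp19 stood at 11.14 on array 9 and at 7.61 to 8.10 on the other sildenafil arrays, and its difference was 1.08 with all arrays and 0.41 without array 9. The dim genes Mmp13 (1.30 and 0.55) and Mmp7 (1.24 and 0.30) depended on array 9 in the same way, and Mmp23 differed by -0.37 and -0.39.

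The TGF-beta and BMP pathway holds secreted ligands, their antagonists and receptors, and TGF-beta signalling is known to be raised in Marfan tissue. Of 32 measured genes, 19 were higher and 13 lower without array 9, 4 and 0 of them at p under 0.05, with a median of 0.06, and 17 were higher and 15 lower with all arrays, with a median of 0.02. The ligand gene Bmp4 stood at 10.52, 9.99, 10.32, 10.58 and 10.43 under sildenafil and at 9.80, 10.04, 9.61, 9.99 and 10.48 under vehicle. Vehicle array 24 and sildenafil array 9 made the groups overlap, and the difference was 0.38 ± 0.16 with all arrays and 0.48 ± 0.15 without array 9. Tgfb2 differed by 0.29 and 0.36. Inhba, the activin subunit (dim), was 7.96 on array 9 and 4.46 to 4.82 on the other sildenafil arrays, so that 1.36 with all arrays became 0.69 without it. The BMP antagonist Grem1 (dim) differed by 0.95 and 0.49.

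Most members of 4 lists of housekeeping machinery were lower under sildenafil. Of 31 measured ribosomal protein genes, out of 43 listed, 31 were lower with all arrays and 29 without array 9, 12 and 13 of them at p under 0.05, where 3.43% of all genes were lower at that p in each setting. Their median was -0.19 in both. The list mean was 10.73, 10.93, 11.07, 10.88 and 10.88 on the sildenafil arrays and 11.08, 11.27, 11.05, 11.09 and 10.98 on the vehicle arrays, so that only sildenafil array 10 entered the vehicle range. Rpsa, of the small subunit, stood at 9.62, 9.98, 10.03, 9.69 and 9.65 against 10.53, 10.33, 10.19, 10.16 and 9.88, a difference of -0.42 ± 0.13 with all arrays and -0.47 ± 0.13 without array 9. Rps28 differed by -0.30 and -0.34 and Rps20 by -0.30 and -0.31.

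The proteasome degrades ubiquitin-tagged proteins. Of 33 subunit genes, 27 were lower without array 9, 12 of them at p under 0.05, and 6 were higher, with a median of -0.17. With all arrays 26 were lower, 5 of them at p under 0.05, and the median was -0.09. Psmd13, a lid subunit, stood at 9.08, 9.61, 9.46, 9.04 and 9.04 under sildenafil and at 9.59, 9.42, 9.70, 9.62 and 9.53 under vehicle. Arrays 9 and 10 lay in the vehicle range, and the difference was -0.33 ± 0.11 with all arrays and -0.42 ± 0.10 without array 9. The groups of Psmc3, an ATPase of the base, did not overlap in either setting (-0.32 and -0.34), and those of Psma7 did not once array 9 was left out (-0.32 and -0.38). Psmb1 differed by -0.29 and -0.34.

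Of 46 genes of the respiratory chain and ATP synthase, 43 were lower without array 9, 7 of them at p under 0.05, with a median of -0.13. With all arrays 38 were lower and 1 had p under 0.05, with a median of -0.09. That count of 1 is near the share over all genes, which was 3.43% for the lower side in each setting. Ndufa6 of complex I differed by -0.39 and -0.45, Uqcrq of complex III by -0.30 and -0.44, and Cox4i1 of complex IV by -0.23 and -0.36. Of 34 replication-dependent histone genes, 31 were lower without array 9, 5 of them at p under 0.05, with a median of -0.21, and 32 were lower with all arrays, with a median of -0.12. The list mean was 8.71 and 8.66 on vehicle arrays 21 and 22 and 7.81 to 7.91 on the other 3 vehicle arrays, which lay at or below most of the sildenafil arrays (7.84 to 8.30), so that the 2 high vehicle arrays carried the difference of the list means. H4c8 stood at 7.40, 7.82, 8.19, 7.68 and 7.67 under sildenafil and at 9.06, 8.53, 8.86, 8.55 and 7.75 under vehicle. Only vehicle array 24 reached the sildenafil range, and the difference was -0.80 ± 0.20 with all arrays and -0.82 ± 0.21 without array 9. H4c14 differed by -0.46 and -0.41. Histone genes have many near-identical copies, so that signal may be shared between them.

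These medians depended on the scale. In the deposited values, where the median gene was 0.11 higher under sildenafil without array 9, the medians were -0.13 for ribosomal proteins, -0.04 for the proteasome, -0.03 for the respiratory chain and -0.10 for histones. With all arrays the median gene was 0.04 higher on that scale. The medians in that setting were -0.13 for ribosomal proteins, -0.01 for the proteasome, -0.03 for the respiratory chain and -0.06 for histones. All 4 lay below 0 and below the median gene in both settings, but with all arrays the proteasome and respiratory chain medians were close to 0.

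**Figure D3:**
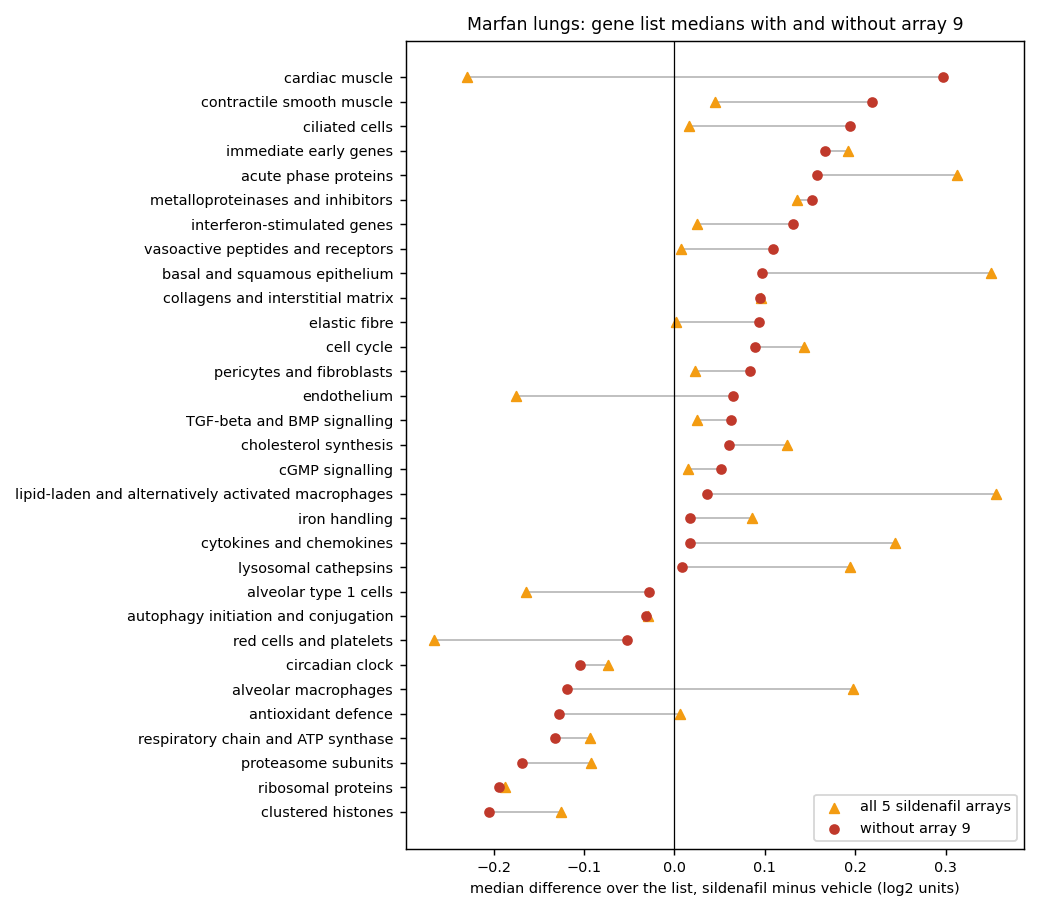
Median difference in log2 intensity, sildenafil minus vehicle in Marfan lungs, for 31 gene lists; circles are without array 9, triangles with all arrays. Cardiac and smooth muscle lists lie highest without array 9 (0.30 and 0.22) and histones and ribosomal proteins lowest (-0.21 and -0.19), and the triangle of the cardiac list lies on the other side of 0.

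Iron and haem genes held some of the larger single differences. Over the list of 24 iron-handling genes, 13 were higher and 11 lower without array 9, with a median of 0.02, and 20 were higher and 4 lower with all arrays, with a median of 0.09. Frrs1, given above, and Cybrd1, another ferric reductase (0.52 and 0.43), were higher. Hmox1, which degrades haem, stood at 8.56, 10.49, 8.70, 8.47 and 8.48 under sildenafil and at 8.84, 9.51, 9.19, 9.17 and 8.73 under vehicle. Array 9 was the highest of all and the other 4 sildenafil arrays were the lowest, so that the difference was -0.15 ± 0.26 with all arrays and -0.53 ± 0.14 without array 9 (limma adjusted p = 0.573).

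Alas2, the haem synthesis enzyme of red cell precursors, stood at 8.93, 7.48, 9.43, 8.96 and 9.00 under sildenafil and at 9.83, 9.27, 10.08, 9.92 and 10.22 under vehicle. Only sildenafil array 10 reached the vehicle range, and the difference was -1.10 ± 0.29 with all arrays and -0.78 ± 0.22 without array 9. The red cell and platelet genes, Alas2 among them (7 measured of 13 listed), had a median of -0.27 with all arrays and -0.05 without array 9. The list mean ran from 7.50 to 8.47 on the sildenafil arrays other than array 9 and from 7.45 to 9.20 on the vehicle arrays. The part of blood content in the Alas2 difference was not tested.

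Of 26 antioxidant genes, 17 were lower and 9 higher without array 9, with 5 and 1 at p under 0.05 and a median of -0.13, and 14 were higher and 12 lower with all arrays, with a median of 0.01. Gpx4, which reduces lipid peroxides, differed by -0.22 and -0.27 and Sod1, the cytosolic superoxide dismutase, by -0.23 and -0.17. Prdx1 was 11.73 on array 9 and 11.08 to 11.22 on the other sildenafil arrays, beside 11.23 to 11.58 under vehicle, with differences of -0.09 and -0.21. Sod3, the extracellular superoxide dismutase, lay on the other side, at 11.45, 10.66, 11.01, 11.34 and 11.30 against 10.58, 10.61, 11.17, 10.51 and 11.09, and differed by 0.36 and 0.48. Msrb3, a methionine sulphoxide reductase, differed by 0.23 and 0.38.

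Of 29 autophagy genes, 16 were lower and 13 higher without array 9, with 4 and 0 at p under 0.05, and 18 were lower and 11 higher with all arrays, with a median of -0.03 in both. Besides Atg101, the members with p under 0.05 without array 9 were Atg5 (-0.21 and -0.35), Atg14 (-0.28 and -0.32) and Atg7 (-0.16 and -0.26), all needed to form the autophagosome. Hexa, a lysosomal hexosaminidase, differed by -0.15 and -0.42, with 9.87 on array 9 and 8.38 to 8.58 on the other sildenafil arrays beside 8.62 to 9.10 under vehicle. Among 16 lysosomal cathepsins the median was 0.19 with all arrays and 0.01 without array 9. Ctsb differed by 0.41 and 0.21 and Ctsf by -0.32 and -0.37.

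Endothelial genes depended on array 9 for their side. Of 23 measured, 17 were lower with all arrays (median -0.17) and 15 were higher without array 9 (median 0.06). The capillary genes Gpihbp1 and Car4 were lower in both settings. Gpihbp1, which anchors lipoprotein lipase, stood at 9.37, 8.49, 9.49, 9.28 and 9.33 under sildenafil and at 9.56, 9.71, 9.68, 9.62 and 9.50 under vehicle, without overlap, and differed by -0.42 ± 0.13 and -0.25 ± 0.09. Car4, a carbonic anhydrase, differed by -0.24 and -0.32. Esm1, a tip-cell proteoglycan, differed by 0.31 and 0.48. Of 13 alveolar type 1 genes, 12 were lower with all arrays (median -0.16), and 8 were lower without array 9 (median -0.03).

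Genes of ciliated cells were higher without array 9, in 15 of 18, with 3 at p under 0.05 and a median of 0.19, and in 11 of 18 with all arrays, with a median of 0.02. Rsph4a of the radial spoke stood at 9.86, 8.84, 9.51, 9.92 and 9.71 under sildenafil and at 9.07, 9.57, 8.58, 9.59 and 9.27 under vehicle. Array 9 lay within the vehicle range, and the difference was 0.35 ± 0.20 with all arrays and 0.53 ± 0.17 without array 9. Ccdc39, needed for axoneme assembly, differed by 0.11 and 0.36. Spef2, a gene of the central apparatus that is outside the list, differed by 0.35 and 0.52, with no overlap once array 9 was left out. Foxp2, an airway transcription factor, differed by 0.38 and 0.50, also with no overlap without array 9.

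Several immune lists depended on array 9, but not all of them. The neutrophil list had a median of 0.016 with all arrays and 0.043 without array 9. That of B and plasma cells was 0.0065 and 0.016. Of 39 cytokine and chemokine genes, 22 were higher and 17 lower without array 9, with a median of 0.02, and 29 were higher and 10 lower with all arrays, with a median of 0.24. Nfkbia, the inhibitor of NF-kappaB, stood at 8.91, 9.22, 8.99, 8.88 and 9.14 under sildenafil and at 9.42, 9.40, 9.56, 9.25 and 9.12 under vehicle. Only vehicle array 24 lay within the sildenafil range, and the difference was -0.32 ± 0.10 with all arrays and -0.37 ± 0.10 without array 9. The B cell attractant Cxcl13 differed by 0.59 and 0.47. Ccl17, a T cell attractant, was 10.38 on vehicle array 21 and 7.50 to 7.98 on the other vehicle arrays, beside 7.25 to 7.90 on the sildenafil arrays other than array 9, and differed by -0.61 and -0.82.

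Alveolar macrophage genes were lower in 12 of 16 without array 9 (median -0.12) and higher in 12 of 16 with it (median 0.20). Of 18 interferon-stimulated genes, 12 were higher and 6 lower without array 9 (median 0.13), and 10 were higher and 8 lower with all arrays (median 0.02), with Ifit2 (0.15 and 0.43) and Gbp2 (0.27 and 0.43) above 0 and Isg15 (dim, -0.42 and -0.44) below. The acute phase list of 16 genes had a median of 0.31 with all arrays and 0.16 without array 9. Fga, fibrinogen alpha (dim), differed by 1.24 and 0.51, with 7.80 on array 9.

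Cell cycle genes were higher in 19 of 31 without array 9 (median 0.09), 3 of them at p under 0.05, and in 23 with all arrays (median 0.14). The list mean was 6.30 and 6.43 on sildenafil arrays 8 and 9 and 5.66 to 5.83 on arrays 10 to 12, inside the vehicle range of 5.65 to 6.01. Kif11, a mitotic kinesin (dim), stood at 5.36, 5.19, 4.58, 4.63 and 4.93 under sildenafil and at 4.55, 4.23, 4.32, 3.78 and 4.43 under vehicle. The groups did not overlap, by the margin between 4.58 and 4.55, and the difference was 0.68 ± 0.23 with all arrays and 0.62 ± 0.24 without array 9. Kif20a (dim, 0.70 and 0.60), Tpx2 (dim, 0.54 and 0.49) and Mki67 (0.66 and 0.45) were highest on sildenafil arrays 8 and 9. Histone genes, which are made in S phase, lay on the other side of 0, as given above.

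Cholesterol synthesis genes were higher in 13 of 18 without array 9 (median 0.06) and in 15 with all arrays (median 0.12), with Idi1 at 0.32 and 0.30 and Msmo1 at 0.32 and 0.28. Among 19 clock genes, 11 were lower without array 9 (median -0.10) and 10 with all arrays (median -0.07). Npas2, a partner of the clock core (dim), stood at 5.36, 6.74, 6.15, 6.62 and 6.85 under sildenafil and at 5.57, 5.37, 4.74, 4.89 and 5.89 under vehicle, with array 8 in the vehicle range. Its difference was 1.05 ± 0.34 with all arrays and 0.95 ± 0.35 without array 9. The time of day of sampling is not named in the labels.

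Array 9 differed from the other Marfan arrays by markers of several cell types at once. Over all genes it was the highest of the 10 Marfan arrays at 16.7% and the lowest at 19.7%. It was the highest at 17 of 20 genes of lipid-laden and alternatively activated macrophages, 12 of 16 of alveolar macrophages, 27 of 39 cytokines and chemokines, 12 of 16 acute phase genes and 17 of 24 iron genes. Some genes stand in more than 1 of these lists, so the counts are not separate. Mrc1, Lpl and Chil3 are in both macrophage lists, and Lcn2, Hp and Cp in the acute phase and iron lists. The mean of the lipid-laden macrophage list was 10.5 on array 9 and 7.85 to 9.01 on the others. Gpnmb, a glycoprotein of such macrophages, stood at 12.03 on array 9, 9.07 on array 10 and 6.93 to 7.44 on the other 8 Marfan arrays. Ctsk, a collagen-degrading cathepsin, stood at 11.58 against 7.16 to 8.45, and Arg1, arginase 1, at 10.44 against 3.69 to 5.94.

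Array 9 was also the highest at 8 of 12 genes of basal and squamous epithelium. Krt5, a basal cell keratin, stood at 7.78 on array 9 and at 2.91 to 3.97 on the other Marfan arrays. Saa3, an acute phase protein, stood at 9.94 against 4.45 to 6.42, and the neutrophil chemokine Cxcl2 at 7.33 against 3.25 to 3.96. In the other direction, array 9 was the lowest at 13 of 14 cardiac, 12 of 13 alveolar type 1, 20 of 23 endothelial, 13 of 18 contractile and 13 of 18 ciliated cell genes. Its cardiac mean was 2.33 below the mean of the other 9 Marfan arrays, its red cell and platelet mean 1.36 below, and its contractile and endothelial means each 0.94 below. The labels give the same RNA integrity minimum of 8.5 for every sample.

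**Figure D4:**
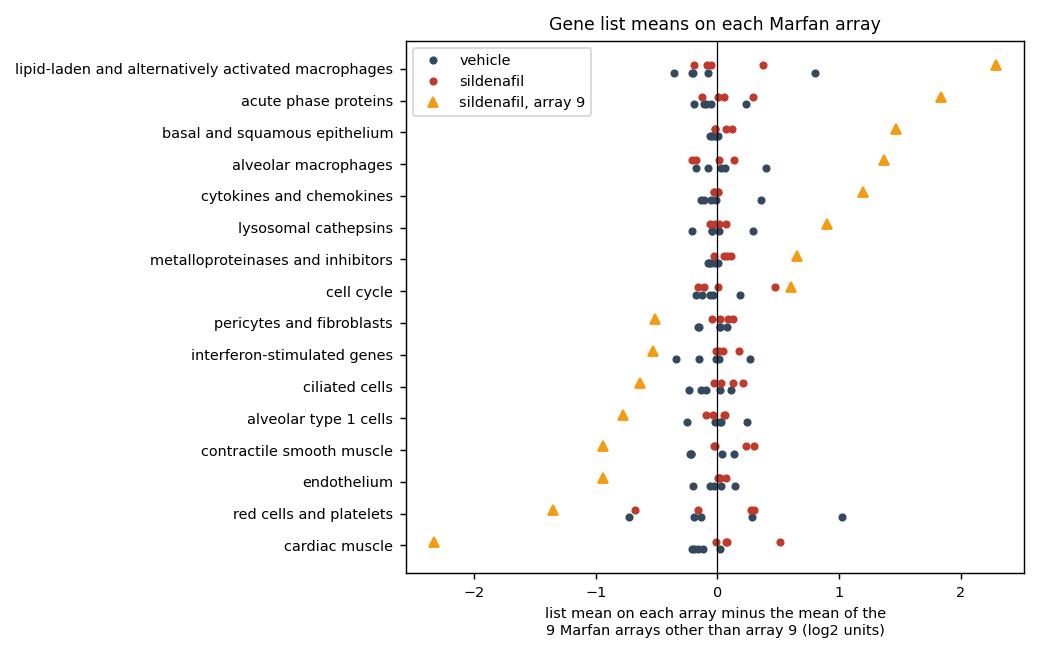
Mean log2 intensity of 16 gene lists on each Marfan array, minus the mean of the 9 Marfan arrays other than array 9 (x axis). Points are arrays and the triangle is array 9. The lists shown were picked because array 9 lay furthest below or above that mean. Lists left out lay closer to it, such as autophagy (-0.01) and ribosomal proteins (-0.07). Array 9 lies 2.30 log2 units higher for lipid-laden macrophage genes and 2.33 lower for cardiac genes, outside the range of the other arrays in both.

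The effect of sildenafil in Marfan lungs was set beside that in wild-type lungs, with no array in common. Over all genes the differences in the 2 genotypes had the same sign at 56.1% with all arrays and 58.2% without array 9, and a Pearson correlation of 0.14 and 0.21 across genes, which are not independent replicates. Of the 75 genes that were higher without overlap in Marfan lungs, 45 (60%) were higher in wild-type lungs too, beside 49.6% of all genes. Of the 97 that were lower, 68 (70.1%) were lower in wild-type lungs, beside 50.4% of all genes. Without array 9 these were 108 of 175 (61.7%) and 153 of 216 (70.8%). The shares for higher genes are near the 56.1% and 58.2% of all genes that had the same sign in both genotypes. Deposited array medians ran from 5.32 to 5.83 in the wild-type vehicle group and from 5.87 to 6.19 in the wild-type sildenafil group, and the part of that brightness in the wild-type differences was not tested.

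Several of the list medians lay on the same side in wild-type lungs. The median of the immediate early genes was 0.20 there, that of the ribosomal proteins -0.21, of the respiratory chain -0.22, of the proteasome -0.12 and of the histones -0.28. Fos differed by 0.95 ± 0.39 in wild-type lungs, Egr1 by 1.03 ± 0.37, Pde5a by 0.32 ± 0.19, Rpsa by -0.33 ± 0.13 and H4c8 by -0.70 ± 0.21. The cardiac list had a median of -0.10 in wild-type lungs and, in Marfan lungs, of -0.23 with all arrays and 0.30 without array 9. The ciliated cell list had a median of -0.19 in wild-type lungs and of 0.02 and 0.19 in Marfan lungs. Other lists also differed in side. The red cell and platelet list had a median of 0.37 in wild-type lungs and of -0.27 and -0.05 in Marfan lungs. The acute phase list had -0.07 in wild-type lungs and 0.31 and 0.16 in Marfan lungs.

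The difference between the effects was tested for every gene, and none passed. The lowest adjusted p from limma was 0.984 with all arrays and 0.995 without array 9, and 872 (4.47%) and 846 (4.34%) genes had an unadjusted p under 0.05. Atg101 differed by 0.01 in wild-type lungs, and the difference between the effects was -0.60 ± 0.16 with all arrays and -0.58 ± 0.17 without array 9 (limma adjusted p = 0.995). Tnnc1 differed by -0.30 in wild-type lungs, a difference between effects of 0.45 ± 0.33 with all arrays and 0.78 ± 0.19 without array 9. Among dim genes, Krt72 was 0.85 higher under sildenafil in wild-type lungs and 0.38 lower in Marfan lungs in both settings, and F11 was 0.60 lower in wild-type lungs and 0.47 and 0.51 higher in Marfan lungs. Krt72 stood at 3.27 to 3.46 on the Marfan sildenafil arrays, near the background probe sets. Hsp90aa1, a stress-inducible chaperone, differed by -0.18 in wild-type lungs and by 0.30 and 0.37 in Marfan lungs. None of these can be called particular to Marfan lungs.

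**Figure D5:**
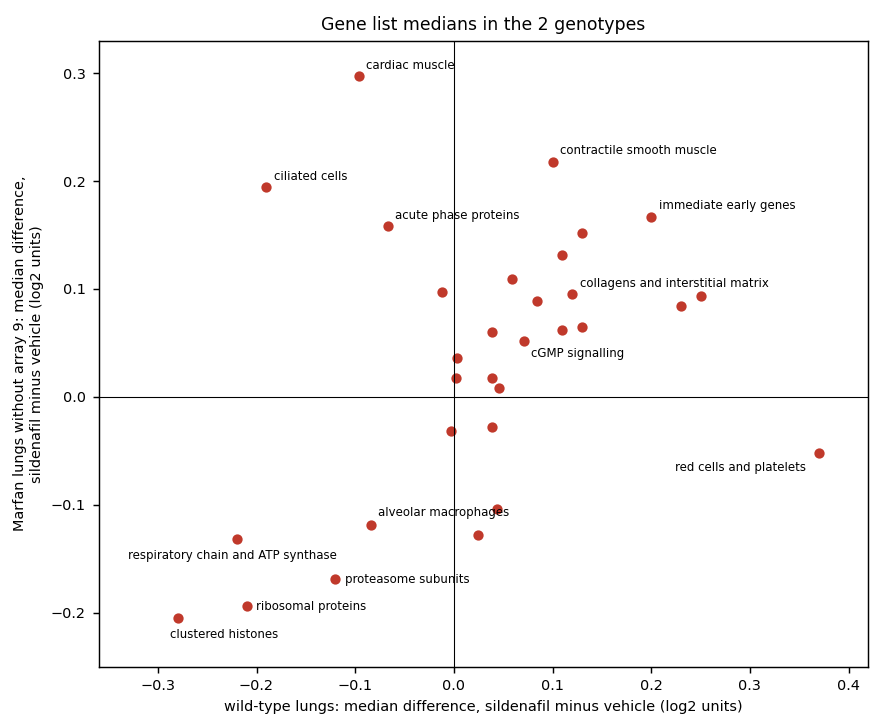
Median difference in log2 intensity, sildenafil minus vehicle, of each gene list in wild-type lungs (x axis) and in Marfan lungs without array 9 (y axis); each point is 1 list. Ribosomal, histone, respiratory chain and proteasome lists lie below 0 on both axes and immediate early genes above 0 on both. Without array 9, cardiac, ciliated cell, acute phase and red cell lists, among others, lie on opposite sides.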

How the data were processed

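RNA from mouse lungs was hybridised to Affymetrix arrays, from 700 pg of RNA with an integrity number above 8.5 per the labels. The deposited values are log2 intensities made by the authors with Affymetrix Expression Console and RMA, per the submitters' processing notes; the sources used here give no versions. Of 29129 entries, 22142 transcript probe sets were kept and quantile-normalized over 20 arrays, because deposited array medians ran from 5.32 to 6.45. Platform annotation gave 1 gene for 19527 probe sets. The other 2615 had no gene or more than 1 and were left out. The brightest probe set stood for a gene, leaving 19494 genes. Some genes are not reported here.

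All 4 groups were fitted together with limma 3.58.1 (R 4.3.3, eBayes with trend, two-sided, Benjamini-Hochberg over all genes). With 16 residual degrees of freedom (15 without array 9), the median standard error of a difference was 0.17. The code was tested on simulated data. The members and gene lists were chosen with earlier results of these data known. Genes named are those with the smallest p, the largest differences without overlap, leading members of each list, the cyclic GMP genes and those most apart on array 9; smell and taste receptors, antigen receptor segments, small RNAs and predicted genes were left out. Alternatives covered scaling, arrays fitted, array weights, dim genes, variance trend, probe sets, brightness, sex and leaving out each array.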

Additional observations from a re-analysis of the deposited data

Results flagged for a closer look

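Among 314 gene values and list means tested within the 2 Marfan groups, 57 had an array whose gap to its nearest neighbour was large beside the range of the group. Chance gives such a gap in about 1 in 20 groups of values not chosen for it. Of the 57, 46 were on sildenafil array 9, but many of these genes were named because they lay apart on that array, so the number describes the choice and is no test.

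List means on array 9 that lay above the other 4 sildenafil arrays were those of lipid-laden and alternatively activated macrophages (10.5, others 8.02 to 8.58), alveolar macrophages (9.69, others 8.11 to 8.45), acute phase proteins (8.38, others 6.42 to 6.84) and cytokines and chemokines (7.59, others 6.37 to 6.40). Further list means above the others were those of lysosomal cathepsins (9.65), metalloproteinases and inhibitors (7.04), antioxidant defence (9.83), iron handling (8.50) and basal and squamous epithelium (6.00, others 4.51 to 4.65). List means on array 9 that lay below the others were those of cardiac muscle (5.30, others 7.62 to 8.14), contractile smooth muscle (6.84), pericytes and fibroblasts (7.49), endothelium (7.99, others 8.93 to 9.00), ciliated cells (7.01), interferon-stimulated genes (6.53) and alveolar type 1 cells (9.59).

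Single genes that were high on array 9 included the proteases Ctsk (11.58), Ctsb (12.14) and Mmp19 (11.14), the lysosomal Hexa (9.87), the haem and redox genes Hmox1 (10.49), Prdx1 (11.73) and Frrs1 (7.97), and Atg7 (8.13). Secreted and surface proteins that were high there were Saa3 (9.94), Fga (7.80), Cxcl2 (7.33), Inhba (7.96), Ptgir (7.70), Clca3b (5.31) and the keratin Krt5 (7.78).

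Muscle genes that were low on array 9 were Actc1 (7.37, others 9.57 to 10.09) and Tnnt2 (5.75, others 8.99 to 9.52). Genes of the cyclic GMP and endothelin pathways that were low there were Pde5a (8.71), Pde3a (8.08), Gucy1b1 (7.83), Edn1 (7.48) and Ednrb (7.90). The others were Mapk10 (4.25, others 7.08 to 7.58), Alas2 (7.48), Ccdc39 (6.70), Spef2 (6.38), Gpihbp1 (8.49), Ifit2 (5.24), Inmt (9.38) and Nrn1 (7.45).

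On vehicle array 21 the list means of lipid-laden macrophages (9.01, others 7.85 to 8.13) and of cytokines and chemokines (6.75, others 6.26 to 6.38) were high, as were Ccl17 (10.38, others 7.50 to 7.98) and Ctsk (8.18, others 7.16 to 7.44). On vehicle array 22 Zfp36 (9.93) and Fgf10 (5.81) were high, and on vehicle array 24 Ddah1 (8.85) and Hsp90aa1 (10.06). On sildenafil array 8 Mmp23 was low (6.02, others 6.79 to 6.95) and Krt72 high (3.46), and on sildenafil array 12 Srms was high (4.30).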

How the results depend on the processing

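No gene passed an adjusted limma p of 0.05 under any alternative run, and the lowest adjusted p of the comparison ran from 0.131 to 1 with all arrays and from 0.0565 to 0.926 without array 9. No paired analysis was possible because the running numbers are unique to each array, so the groups share no replicate numbers. The cause of the differences below was not tested.

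With the deposited values, counts at unadjusted p of genes that were lower were 136 with all arrays and 75 without array 9. Counts without overlap were 19 higher and 17 lower with all arrays, and 24 lower without array 9. Centring on medians gave 390 lower genes at unadjusted p and 50 lower without overlap with all arrays. With only the brighter 50% of genes tested, 346 were higher at unadjusted p with all arrays and 414 without array 9, and counts without overlap were 31 higher and 61 lower, and 84 and 143. Leaving out each array in turn gave counts without overlap of 112 to 185 higher and 150 to 246 lower with all arrays, and of 287 to 476 and 339 to 641 without array 9, where smaller groups overlap less. Counts at unadjusted p ran from 521 to 783 higher and from 577 to 756 lower, and from 509 to 802 and from 460 to 778.

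Of 1147 values of list medians, 1128 moved by less than the spread between arrays. With all arrays that spread includes array 9, so it is wide where array 9 lies apart. For cardiac muscle the SD under sildenafil was 1.13. Its median went from -0.23 to 0.30 when array 9 was left out, and this was not counted as moved. The number is therefore no measure of stability against leaving out array 9. With the deposited values and all arrays the medians were 0.088 for TGF-beta genes and 0.028 for autophagy. Without array 9 they were 0.150 for cyclic GMP signalling, 0.230 for vasoactive genes, 0.190 for pericytes and fibroblasts, 0.210 for elastic fibre, 0.260 for metalloproteinases, 0.170 for TGF-beta genes, -0.045 for the proteasome, 0.110 for iron, 0.083 for autophagy, 0.170 for cholesterol and 0.200 for basal epithelium. Array weights gave 0.150 for elastic fibre with all arrays, and brightness as a covariate 0.076 for metalloproteinases without array 9. Leaving out each array gave -0.29 to 0.024 for the clock list with all arrays, and 0.0049 to 0.14 for elastic fibre, 0.094 to 0.17 for metalloproteinases and 0.011 to 0.11 for basal epithelium without array 9.

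Of 4606 values of single genes, 54 had the opposite sign. With all arrays these were Npr2 in the deposited values (0.00517), Pde3a (0.00337), Npr2 (0.0694) and Tnnt2 (0.19) with array weights, and Nppa (-0.0677), Ddah1 (-0.0169) and Ednrb (-0.00694) with brightness as a covariate. Leaving out each array with all arrays as the start gave -0.0194 to 0.33 for Pde5a, -0.14 to 0.23 for Prkg1, -0.38 to 0.78 for Nppa, -0.0727 to 0.22 for Ddah1, -0.1 to 0.36 for Ednrb, -0.29 to 0.0534 for Pde3a, -0.3 to 0.0309 for Gucy1b1, -0.13 to 0.1 for Npr2, -0.59 to 0.35 for Tnnt2, -0.0341 to 0.65 for Actc1, -0.059 to 0.29 for Prkg2, -0.00375 to 0.52 for Cnn1 and -0.0147 to 0.48 for Tnnc1. Without array 9 it gave -0.0567 to 0.31 for Prkg1, -0.045 to 0.53 for Mmp7, -0.0289 to 0.41 for Ctsk, -0.16 to 0.56 for Gpnmb, -0.41 to 0.34 for Arg1 and -0.0178 to 0.1 for Gucy1b1. The number of arrays limits the precision of every value.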
